A study of Homo sapiens with 6 samples.

Results

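Small nucleolar RNAs (snoRNAs) guide the chemical modification of ribosomal RNA, and most of them are cut from introns of longer transcripts called host genes. A host RNA is spliced, its introns are trimmed to snoRNAs of the box C/D class, which guide methylation, or the box H/ACA class, which guide pseudouridine formation, and the spliced exons remain as the host's own RNA. Many hosts make no protein; their spliced RNAs are short-lived, because translation of their short reading frames exposes them to nonsense-mediated decay, and many begin with a 5′ terminal oligopyrimidine tract, the start shared with ribosomal protein mRNAs.

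The 10 genes described here are SNHG1, SNHG7, SNHG8, SNHG12, SNHG17, SNHG29, SNHG32, EPB41L4A-AS1, TAF1D and ZFAS1, of 18132 genes measured. They are snoRNA hosts by name, and they were chosen on the contrast of MAP30 with control in these same arrays. Their log2 differences between MAP30 and control are therefore given as a description, and no p-value is given for any of them. A probe set, the group of short probes that reads 1 transcript region, was kept when its annotation held exactly 1 gene symbol and that symbol was one of the 10. This gave 18 of 49395 probe sets. There are 6 arrays of T24 cells, an established human bladder carcinoma line: 3 of control cells and 3 of cells exposed to MAP30, a ribosome-inactivating protein of bitter melon (Momordica charantia), at 10 µg/ml and harvested at 48 hours. All were grown in DMEM with fetal bovine serum. What the control cells were given, and when they were harvested, is not stated in the sources used here. No label says that replicates were separate cultures, so the errors cover the spread between these arrays, which may be technical.

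The deposited values are logarithms, read here as base 2, and each probe set was centred so that its median over the 6 arrays is 0. Differences between arrays remain, but no gene can be called abundant or scarce, the labelled cell type cannot be checked by the level of its markers, and a probe set that never rose above background cannot be told from one that detected an unchanged RNA. The call used below is an adjusted p under 0.05 in limma, a linear model fitted across all genes (or all probe sets) with Benjamini-Hochberg adjustment. Over all genes 26.9% were called higher with MAP30 and 30.6% lower; over all probe sets the shares were 26.2% and 30.1%. RNA integrity was read from ACTB as the 3′ minus the 5′ signal on the log2 scale. This value was 0.158 larger in the MAP30 arrays (SD 0.007, against 0.021 in the control arrays; n = 3 per group; two-sided exact permutation p = 0.1, the smallest that 3 against 3 allows). For GAPDH it was 0.043 larger (exact permutation p = 0.1). Their part in the differences below was not tested. Of the markers of other cell types, 2 of 5 leukocyte, 1 of 5 fibroblast and 1 of 4 endothelial genes were called higher and 1 leukocyte gene lower, with differences from -0.26 to 0.45, and of 9 urothelial markers 1 was called higher (GATA3, a luminal transcription factor, at 2.12 ± 0.06 SE) and 2 lower (the keratin genes KRT7 at -1.03 ± 0.03 SE and KRT8 at -0.47 ± 0.03 SE).

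All 10 hosts were found in the RefSeq gene table, 9 as long noncoding RNAs and TAF1D as a protein-coding gene. Their spans hold 36 annotated snoRNA genes, 19 of box C/D and 17 of box H/ACA. SNHG1 and TAF1D hold the most, 8 each: those of SNHG1 are all box C/D, and those of TAF1D are 6 box H/ACA and 2 box C/D. SNHG12 and SNHG17 hold 4 each, SNHG29 and ZFAS1 3 each, SNHG7 and SNHG32 2 each, and SNHG8 and EPB41L4A-AS1 hold 1 each.

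The start regions of the 10 hosts are shown because many snoRNA hosts begin with a 5′ terminal oligopyrimidine tract. Each line gives 50 bases of RefSeq sequence (build GRCh38.p14), 20 before and 30 after the annotated start, so that the first transcribed base is number 21 of the line. Capitals mark the longest unbroken run of C and T that opens with C, holds at least 5 bases and begins within 10 bases of the start, where a run that opens further upstream is counted only from the edge of that window; lines without capitals have none. The stretches are chr1:28581844-28581893 (minus strand) for SNHG12, chr11:93741466-93741515 (minus) for TAF1D, chr6:31834896-31834945 (plus) for SNHG32, chr20:49278622-49278671 (plus) for ZFAS1, chr5:112160506-112160555 (plus) for EPB41L4A-AS1, chr11:62855856-62855905 (minus) for SNHG1, chr20:38435299-38435348 (minus) for SNHG17, chr4:118278742-118278791 (plus) for SNHG8, chr9:136728155-136728204 (minus) for SNHG7 and chr17:16438967-16439016 (plus) for SNHG29.
SNHG12: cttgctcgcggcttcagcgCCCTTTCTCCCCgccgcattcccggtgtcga
TAF1D: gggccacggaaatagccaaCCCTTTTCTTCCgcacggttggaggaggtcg
SNHG32: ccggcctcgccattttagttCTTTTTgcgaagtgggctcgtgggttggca
ZFAS1: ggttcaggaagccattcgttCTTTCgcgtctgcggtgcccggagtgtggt
EPB41L4A-AS1: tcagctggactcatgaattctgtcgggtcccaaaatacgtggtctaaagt
SNHG1: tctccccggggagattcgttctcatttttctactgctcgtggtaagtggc
SNHG17: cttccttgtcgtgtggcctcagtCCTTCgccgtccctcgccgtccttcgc
SNHG8: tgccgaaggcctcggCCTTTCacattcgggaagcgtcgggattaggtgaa
SNHG7: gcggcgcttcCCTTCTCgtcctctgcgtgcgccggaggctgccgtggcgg
SNHG29: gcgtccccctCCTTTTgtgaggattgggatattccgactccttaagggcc

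A run of this kind was found in 8 of the 10 hosts, against 33.5% of the 35116 promoters in the table searched the same way on the transcribed strand. In SNHG7 and SNHG29 the run starts 10 bases upstream and ends before the first transcribed base, and in SNHG8 it starts 5 bases upstream and ends on that base. A stricter search, added after the data were seen, required C at the first transcribed base itself, followed by at least 4 bases that are each C or T. In it 4 hosts had a run, against 4.07% of all promoters, and nothing is read from this difference. The 4 hosts are SNHG12 and TAF1D with 11 bases from the start, SNHG32 with 6 and ZFAS1 with 5. In SNHG12 and TAF1D the run begins 1 base before the annotated start and is 12 bases long. SNHG17, whose probe set was not called, has a run of 5 bases that begins at the fourth transcribed base. EPB41L4A-AS1 and SNHG1 have no such run in this window. A match is a description of letters near an annotated start, and start sites were not measured here.

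Of the 10 hosts 9 were called higher with MAP30 and 0 lower, where 26.9% and 30.6% of all genes were; the members were chosen on this contrast, and nothing is read from the count. Their median log2 difference was 1.49, and that of all genes -0.02. By probe set, 14 of 18 were called higher, 0 lower and 4 were not called. All 3 MAP30 arrays lay above all 3 control arrays in 15 of the 18 probe sets and below them in 0, where this held for 28.6% and 33.3% of all probe sets.

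**Figure D1:**
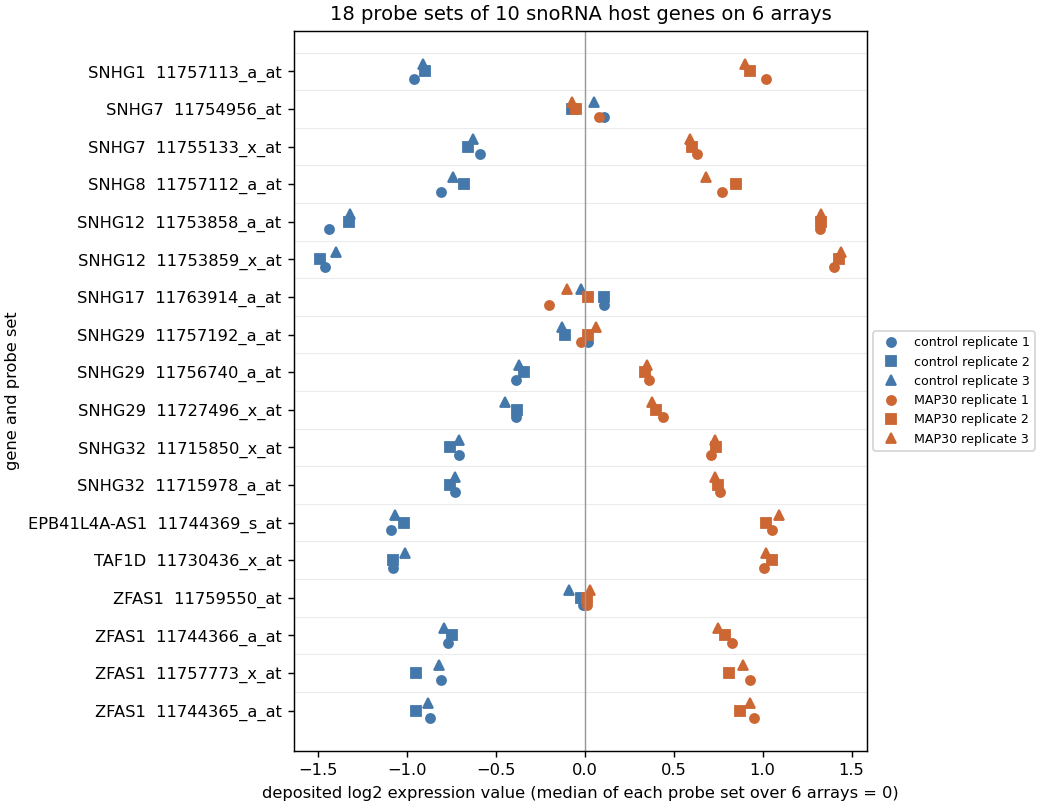
Deposited log2 values (horizontal axis, centred so that each probe set has a median of 0 over the 6 arrays) of the 18 probe sets of the 10 host genes; each point is 1 array, blue for control, orange for MAP30, with the shape giving the replicate number. In 15 probe sets the groups lie on either side of 0, in the ZFAS1 probe set 11759550_at by a narrow margin, and in the 4 that were not called all arrays lie between -0.20 and 0.11.

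SNHG12, a long noncoding host of box H/ACA and box C/D snoRNAs, showed the largest difference. Its probe set 11753859_x_at read -1.46, -1.49 and -1.40 in the control arrays and 1.40, 1.43 and 1.44 in the MAP30 arrays. The second probe set, 11753858_a_at, read -1.44, -1.33 and -1.32 in control and 1.32, 1.33 and 1.33 with MAP30. In both the groups were far apart and the replicates close together. As the mean of both, SNHG12 was 6.88-fold higher with MAP30 (log2 difference 2.78 ± 0.04 SE, n = 3 per group), and the 2 probe sets differed from each other by 0.18 ± 0.06 SE. Another 3 probe sets carry the symbol SNHG12 together with that of a snoRNA gene, and their differences run from -1.04 to 0.69.

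EPB41L4A-AS1, an antisense transcript that carries 1 box H/ACA snoRNA gene, read -1.09, -1.02 and -1.07 in control and 1.05, 1.02 and 1.09 with MAP30. The difference of 2.12 ± 0.04 SE is 4.33-fold. It rests on 1 probe set of class _s_at, a class whose probes can be shared by transcripts of more than 1 gene. EPB41L4A, the protein-coding gene that overlaps it, was lower by limma at -0.42 ± 0.04 SE, so the overlapping pair differed in direction.

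TAF1D encodes a subunit of SL1, the complex that places RNA polymerase I on ribosomal RNA genes, and is the only protein-coding host of the 10. It read -1.08, -1.08 and -1.01 in control and 1.01, 1.05 and 1.02 with MAP30, a 4.25-fold difference (2.09 ± 0.04 SE). This too rests on 1 probe set, of class _x_at, in which some probes can bind other sequences. Another 5 probe sets carry the symbol TAF1D together with that of a snoRNA gene, and their differences run from -1.91 to 0.58. The difference of 0.03 between EPB41L4A-AS1 and TAF1D is below its standard error of 0.05.

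SNHG1, which carries only box C/D snoRNA genes, read -0.96, -0.90 and -0.91 in control and 1.02, 0.93 and 0.90 with MAP30. It was 3.68-fold higher (1.88 ± 0.04 SE) on its single probe set. SNHG8, host of 1 box H/ACA snoRNA gene, read -0.81, -0.68 and -0.74 in control and 0.77, 0.85 and 0.68 with MAP30, 2.85-fold higher (1.51 ± 0.05 SE). Its MAP30 replicates spread more (SD 0.08) than those of any other called host, and the groups still lay far apart.

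SNHG32, a box C/D host, gave the closest agreement between probe sets. 11715978_a_at read -0.73, -0.76 and -0.73 in control and 0.76, 0.75 and 0.73 with MAP30, and 11715850_x_at read -0.71, -0.76 and -0.71 against 0.71, 0.74 and 0.73. The 2 differed by 0.04 ± 0.06 SE, and the gene was 2.77-fold higher (1.47 ± 0.03 SE). A further probe set that carries a snoRNA's symbol as well, 11763227_at, was at 0.08 ± 0.06 SE. SNHG8 and SNHG32 could not be told apart in size, with a gap of 0.04 ± 0.06 SE.

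ZFAS1, a box C/D host that starts beside ZNFX1, has 4 probe sets, and 3 of them stood together. 11744365_a_at read -0.87, -0.95 and -0.88 in control and 0.95, 0.87 and 0.93 with MAP30, a difference of 1.81 ± 0.05 SE. 11757773_x_at and 11744366_a_at gave 1.73 ± 0.06 SE and 1.56 ± 0.04 SE. The fourth, 11759550_at, read -0.01, -0.02 and -0.09 in control and 0.01, 0.01 and 0.03 with MAP30. Its difference of 0.06 ± 0.04 SE was not called, although its groups did not overlap, and it lay 1.76 ± 0.06 SE below that of 11744365_a_at. The mean over all 4 was 1.29 ± 0.03 SE, or 2.45-fold, and their median gave 1.64.

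SNHG7, a box H/ACA host, had 2 probe sets that disagreed. 11755133_x_at read -0.59, -0.66 and -0.63 in control and 0.63, 0.60 and 0.59 with MAP30, a 2.35-fold difference (1.24 ± 0.04 SE). 11754956_at read 0.11, -0.07 and 0.05 in control and 0.08, -0.05 and -0.07 with MAP30, with overlapping groups and a difference of -0.05 ± 0.06 SE. The gap between them was 1.28 ± 0.08 SE. The mean for SNHG7, 1.51-fold higher (0.59 ± 0.05 SE), therefore stands for neither, and the gene is left with the -0.05 of 11754956_at when _x_at probe sets are dropped.

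SNHG29, a box C/D host, split in the same way. 11727496_x_at read -0.39, -0.38 and -0.45 in control and 0.44, 0.40 and 0.38 with MAP30 (0.81 ± 0.04 SE), and 11756740_a_at read -0.39, -0.34 and -0.37 against 0.36, 0.34 and 0.35 (0.72 ± 0.04 SE). 11757192_a_at read 0.02, -0.11 and -0.13 against -0.02, 0.02 and 0.06, with overlapping groups and a difference of 0.09 ± 0.06 SE. The mean over the 3 was 0.54 ± 0.03 SE, 1.45-fold. SNHG7 and SNHG29 differed by 0.06 ± 0.06 SE.

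SNHG17, a box H/ACA host, was the one host that was not called. Its single probe set read 0.11, 0.11 and -0.02 in control and -0.20, 0.02 and -0.10 with MAP30, with overlapping groups and a difference of -0.16 ± 0.06 SE. Without control replicate 3 the difference was -0.21 and without MAP30 replicate 2 it was -0.22. The fit by gene called it lower in both cases, and the fit by probe set only without MAP30 replicate 2. It was also called lower, at -0.37, with arrays centred on their hybridization controls, and it was 0.00 with arrays centred on their poly-A controls.

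The order from largest to smallest was SNHG12, EPB41L4A-AS1, TAF1D, SNHG1, SNHG8, SNHG32, ZFAS1, SNHG7, SNHG29 and SNHG17. Apart from the 3 close pairs named above (EPB41L4A-AS1 with TAF1D, SNHG8 with SNHG32, SNHG7 with SNHG29), each gap to the next gene was 3.7 to 12.8 times its standard error. These errors cover the spread between arrays and not that between probe sets of a gene, so they do not measure how sure the order is. EPB41L4A-AS1, TAF1D, SNHG1, SNHG8 and SNHG17 rest on 1 probe set each. The places of ZFAS1, SNHG7 and SNHG29 depend on averaging probe sets that disagree. With the median over probe sets ZFAS1 was at 1.64, above SNHG8 (1.51) and SNHG32 (1.47), and SNHG29 at 0.71, above SNHG7 (0.59). Among the 5 hosts with several probe sets, SNHG12 and SNHG32 had every probe set called higher, and ZFAS1, SNHG7 and SNHG29 each had 1 that was not called. With poly-A-control centring 16 of the 18 probe sets were called higher, the uncalled ones of ZFAS1 (0.22) and SNHG29 (0.26) among them. With hybridization-control centring that of SNHG7, 11754956_at, was called lower (-0.26), as was that of SNHG17.

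**Figure D2:**
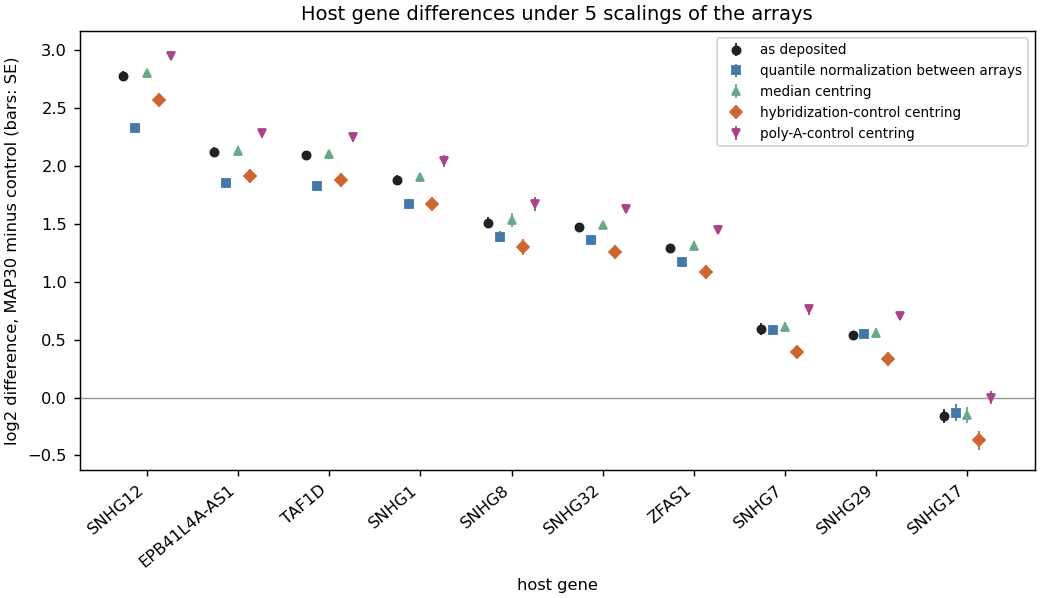
Log2 difference by gene, MAP30 minus control (vertical axis, bars are SE), of the 10 hosts with arrays scaled as deposited, by quantile normalization, by the array median, and by 2 sets of spiked-in control RNA. The 9 called hosts lie above 0 under all 5 scalings, and SNHG17 runs from -0.37 to 0.00.

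Centring on spiked-in control RNA subtracts a single value from each array, so it shifts all genes alike by construction. Quantile normalization does not. Centring on the hybridization controls shifted the median of all genes to -0.23, with 21.1% of calls higher, and centring on the poly-A controls shifted it to 0.14, with 70.3% of calls higher, against -0.02 and 46.8% as deposited. Under both, the same 9 hosts were called higher, with medians over the 10 of 1.28 and 1.65. Quantile normalization shortened the largest differences, SNHG12 most, from 2.78 to 2.33, and left SNHG7 at 0.58, SNHG29 at 0.55 and SNHG17 at -0.13.

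Of the 36 snoRNA genes inside the hosts, 5 have probe sets annotated to the snoRNA alone, and their differences were small. SNORA13, inside EPB41L4A-AS1, was at -0.06 ± 0.06 SE over 2 probe sets and was not called, against 2.12 for its host. SNORD12B, inside ZFAS1, read 0.09, 0.00 and 0.04 in control and -0.19, -0.00 and -0.24 with MAP30 and was called lower at -0.19 ± 0.07 SE, against 1.29 for ZFAS1. Inside SNHG17, SNORA71C (0.29 ± 0.08 SE) and SNORA71A (0.20 ± 0.04 SE) were called higher and SNORA71D (0.05 ± 0.04 SE) was not. MAP30 replicate 1 of SNORA71C read 0.37 where the other two read 0.09.

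**Figure D3:**
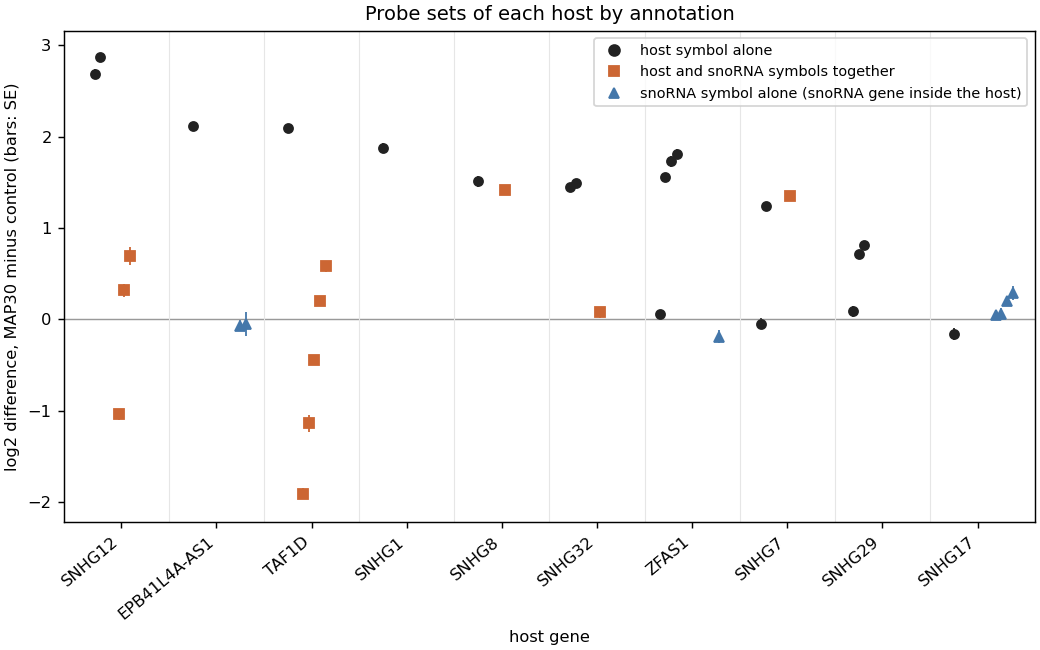
Log2 difference of each probe set, MAP30 minus control (vertical axis, bars are SE), for the 10 hosts from the largest gene difference to the smallest. Black circles carry the host symbol alone, orange squares carry the host symbol together with a snoRNA symbol, and blue triangles carry only a snoRNA gene that lies inside the host; circles reach 2.87, squares run from -1.91 to 1.42 and triangles from -0.19 to 0.29.

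Across the whole array 44 snoRNA genes have probe sets of their own, a list drawn up after the data were seen. Of these 18 were called lower, 2 higher and 24 not, with a median of -0.13. Of all genes 30.6% were called lower and 26.9% higher. With hybridization-control centring 37 were called lower and 0 higher. When the poly-A controls were used instead, 7 were lower and 9 higher, so most of these small differences depend on the scaling. The largest fall was that of SNORA12, which read 1.10, 1.22 and 1.06 in control and -1.19, -1.25 and -1.06 with MAP30 (-2.30 ± 0.06 SE, 4.91-fold lower). SNORD17 was 3.78-fold lower (-1.92 ± 0.08 SE). The genes that span these 2, CWF19L1 (0.18 ± 0.04 SE) and SNX5 (0.76 ± 0.03 SE), were called higher. For 39 of the 44 snoRNA genes exactly 1 spanning gene was measured (strand was not considered). Where that gene was called higher, the snoRNA gene was called lower in 6 cases, not called in 11 and called higher in 0. Where it was called lower, the snoRNA gene was called lower in 6 and not called in 4. Where it was not called, 4 snoRNA genes were called lower, 2 higher and 6 not. KANSL2, CHD8, CNOT1 and SNHG17 each span more than 1 of these snoRNA genes, so the cases are not all separate. The labelling starts from poly(A) tails, which mature snoRNAs lack, so what these probe sets detect was not tested.

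Other snoRNA hosts moved in both directions, as did all genes, of which 26.9% were called higher and 30.6% lower. Of 19 further noncoding hosts listed, 2 could be named on this array: SNHG9 was called higher at 0.72 ± 0.12 SE and SNHG11 at 0.34 ± 0.06 SE. Among 22 measured protein-coding hosts outside the ribosome, 10 were called higher and 7 lower, with a median of 0.08. RABGGTB, a subunit of the enzyme that attaches lipid anchors to RAB proteins, was 2.90-fold higher (1.54 ± 0.03 SE), and WDR43, a ribosome biogenesis factor, 1.84-fold higher. HSPA8, the constitutive HSP70 chaperone, was 2.03-fold lower (-1.02 ± 0.03 SE) and the histone chaperone gene NAP1L4 1.63-fold lower. Of 17 ribosomal protein genes that host snoRNAs, 7 were called higher and 3 lower, with a median of 0.06 and a range from -0.38 for RPS2 to 0.73 for RPL27A. RPL4 was at 0.49 and RPL3 at -0.27. Scaled to the hybridization controls, 3 ribosomal protein hosts were called higher and 10 lower; scaled to the poly-A controls, 13 were called higher. These lists were not tested against the 10 hosts.

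Proteins that bind snoRNAs went both ways, as did all genes, of which 26.9% were called higher and 30.6% lower. The counts below were not tested against these shares. Of the 8 core proteins, the box C/D proteins NOP58 (0.89 ± 0.03 SE) and NOP56 (0.51 ± 0.04 SE) were called higher. NOP56 and DKC1 are also counted in the list of protein-coding hosts above. Fibrillarin, the methyltransferase encoded by FBL, was called lower at -0.34 ± 0.03 SE, and the H/ACA protein gene NHP2 at -0.38 ± 0.03 SE. The third core gene called lower was SNU13 (-0.15), and DKC1, GAR1 and NOP10 were not called. Of 11 assembly factors 6 were called higher, led by ZNHIT6 (0.88 ± 0.04 SE) and NUFIP1 (0.81 ± 0.04 SE), and 4 lower, with SHQ1 and ZNHIT3 both at -0.49 ± 0.04 SE.

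Of 7 measured nonsense-mediated decay factors, the machinery that degrades many spliced host RNAs, 4 were called higher and 2 lower, with a median of 0.16. The shares over all genes were 26.9% higher and 30.6% lower, and the counts in this paragraph were not tested against them. SMG9 (0.47 ± 0.05 SE), SMG1 (0.43 ± 0.04 SE) and SMG8 (0.36 ± 0.04 SE), which form the kinase complex of the pathway, were called higher. The central helicase gene UPF1 (-0.35 ± 0.04 SE) and the endonuclease gene SMG6 (-0.25 ± 0.05 SE) were called lower. Of the 4 partners of TAF1D in SL1, 3 were called higher, with a median of 0.22. TAF1A was 2.25-fold higher (1.17 ± 0.05 SE), TBP was at 0.30 ± 0.04 SE and TAF1C at 0.13, and TAF1B (0.14) was not called. With hybridization-control centring 1 of the 4 was called higher.

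**Figure D4:**
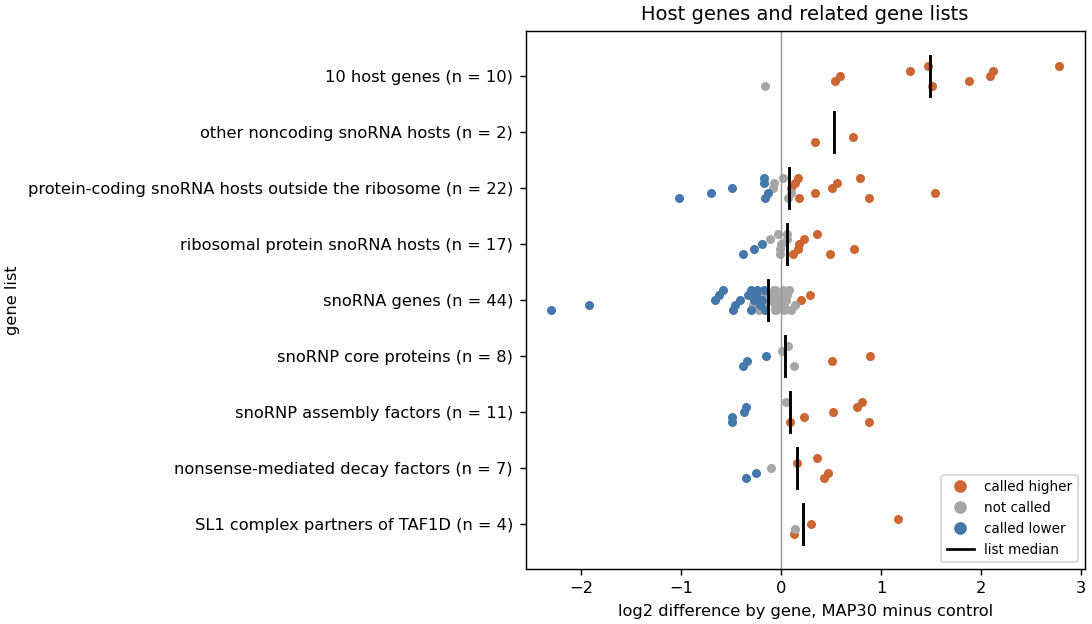
Log2 difference by gene, MAP30 minus control (horizontal axis), for the 10 hosts and 8 related gene lists; each point is 1 gene, orange where called higher, blue where called lower and grey where not called, and black bars are list medians. The median of the 10 hosts is 1.49, and the medians of the lists run from -0.13 for snoRNA genes to 0.53 for the 2 other noncoding hosts.

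Genes that lie next to the hosts in the RefSeq order, or overlap them, did not share a direction. Of 17 such genes that were measured, 5 were called higher, 9 lower and 3 were not called. Across all genes 26.9% were called higher and 30.6% lower, and the counts were not tested against these shares. SLC3A2, the neighbour of SNHG1 and the heavy chain of several amino acid transporters, was at 1.89 ± 0.03 SE, close to the 1.88 of SNHG1, and WDR74 on the other side of SNHG1 was at 0.34 ± 0.03 SE. NEU1, a lysosomal sialidase beside SNHG32, was higher at 2.10 ± 0.05 SE, and the inducible HSP70 gene HSPA1B on its other side was lower at -1.37 ± 0.06 SE. ZNFX1, beside ZFAS1, was higher at 0.80 ± 0.05 SE, and CEP295, which overlaps TAF1D, at 0.84 ± 0.06 SE. The 3 measured neighbours of SNHG12 were called lower, with RCC1 at -0.90 ± 0.03 SE, TRNAU1AP at -0.61 ± 0.06 SE and RAB42 at -0.59 ± 0.05 SE. PRSS12, beside SNHG8, was at -1.44 ± 0.07 SE, C11orf54, beside TAF1D, at -0.76 ± 0.04 SE, AGPAT2, beside SNHG7, at -0.72 ± 0.03 SE and LRRC75A, which overlaps SNHG29, at -0.42 ± 0.09 SE, all called lower. LCN10 (-0.01) and DIPK1B (-0.08) at SNHG7 and TRPV2 (0.04) at SNHG29 were not called.

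The 3 genes whose values over the 6 arrays lay nearest to the mean of the 10 hosts were BAZ2B, MAP2K3 and TOR1AIP2, each at a Euclidean distance of 0.05 on the log2 scale. Their log2 differences were 1.39, 1.41 and 1.39, against a mean of 1.41 over the hosts. This closeness follows from choosing the genes by these same values, and nothing is read from it.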

How the data were processed

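The authors deposited log2 expression values of 49395 probe sets on 6 arrays, centred per probe set to a median of 0 (within 5.0e-07); no label or header states the base of the logarithm. Per the labels' protocols, total RNA was amplified and biotin-labelled with a 3′ in vitro transcription kit. RMA and MAS5 are both named, per the submitters' processing notes, with no role given. Symbols came from the platform annotation: 44988 probe sets had 1 symbol, 1832 several, 2473 none and 102 were controls.

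Probe sets with 1 symbol were averaged per gene. MAP30 was compared with control in limma 3.58.1 (R 4.3.3) with lmFit and eBayes, without further normalization, over 18132 genes and separately over 49293 probe sets. On simulated data of the comparison by gene, the fit recovered 72% of genes changed 1.25-fold and 96% changed 2-fold, with 2 false calls. The simulation changed only a small part of the genes, all upward, with independent normal noise. In the arrays 26.9% of genes were called higher and 30.6% lower, so the simulated rates do not carry over to those calls. Tables were made with pandas 2.3.3 and scipy 1.17.1 under Python 3.11.15.

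Members and lists were chosen with earlier results of these data known, and the snoRNA gene list and the search for runs at the first base were added after seeing the data. From each list, up to 2 genes with the largest rise and up to 2 with the largest fall that passed are named; others were named after their values were seen. Filters on dim probe sets cannot be set on centred values. Same-numbered arrays did not deviate together (correlations of -0.0396, 0.0702 and 0.0106), so the replicate numbers were not taken as pairs.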

Additional observations from a re-analysis of the deposited data

Results flagged for a closer look

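Apart from the 18 probe sets described above, 11 carry a host's symbol together with that of a snoRNA gene, so their signal cannot be assigned to either gene. The gene comparisons above do not use them. In 6 of the 11 all 3 MAP30 arrays lay above all 3 control arrays, and in 4 below them. Over all probe sets the shares were 28.6% and 33.3%, and the counts were not tested against these shares. Of the 6 that lay above, 11763889_x_at was at 1.42 ± 0.04 SE and 11755132_s_at at 1.35 ± 0.04 SE, with symbols that include SNHG8 and SNHG7. Those that include SNHG12 were 11757153_x_at at 0.69 ± 0.10 SE and 11757142_s_at at 0.32 ± 0.07 SE. Those that include TAF1D were 11757141_s_at at 0.58 ± 0.06 SE and 11757164_s_at at 0.20 ± 0.05 SE. Groups of 3 arrays are too small to look for single outlying arrays.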

How the results depend on the processing

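The 9 called hosts stayed called and higher under every alternative run except when the _x_at and _s_at probe sets were dropped, which leaves 8 hosts, 6 of them called; there SNHG7 turned to -0.05. With the replicate block the counts were 9 hosts higher and 4838 and 5483 of all genes higher and lower. Hybridization-control centring gave 3087 genes higher and 11558 lower, 1 host (SNHG17) and 2 host probe sets (of SNHG17 and SNHG7) lower; among the lists, 1 other noncoding host higher, 5 protein-coding hosts higher and 11 lower, 3 ribosomal protein hosts higher and 10 lower, 5 core proteins lower, 1 SL1 partner higher, and 0 snoRNA genes higher and 37 lower. Poly-A-control centring gave 8906 genes higher; 3 protein-coding hosts lower, 13 ribosomal protein hosts and 5 core proteins higher, 1 decay factor lower, and 9 snoRNA genes higher and 7 lower. Quantile normalization gave 4 core proteins higher. Without _x_at and _s_at probe sets, where fewer genes are measured, 6 protein-coding hosts, 3 ribosomal protein hosts and 1 core protein were higher. Leaving out 1 array gave 0 to 1 host and 0 to 1 host probe set called lower, in each case SNHG17. Causes were not tested. Levels were removed from the values, so signal over background cannot be given, and 3 arrays per group limit the precision.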

Other observations

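The other 5 probe sets with a host's and a snoRNA's symbol went the other way or did not move. In 4 of them all 3 MAP30 arrays lay below all 3 control arrays, as in 33.3% of all probe sets. The log2 difference was -1.91 ± 0.06 SE for 11757152_s_at, -1.14 ± 0.09 SE for 11757162_s_at and -0.44 ± 0.04 SE for 11757133_s_at, whose symbols all include TAF1D, and -1.04 ± 0.06 SE for 11757156_s_at, which includes SNHG12. The probe sets that carry the symbol TAF1D thus run from -1.91 to 2.09, and those that carry SNHG12 from -1.04 to 2.87. The fifth, 11763227_at, which includes SNHG32, was at 0.08 ± 0.06 SE and was not called. What the mixed probe sets detect was not tested.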
